A study of Sus scrofa with 2 samples.

Results

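The probes described here are 30 of the 100 that were added to a custom porcine miRNA array. The paper states that its authors added probes from their earlier reports and by homology of sequence with human, mouse or rat. The 30 carry the prefix Y- and were chosen by 3 conditions. The study's probe list gives other species as their source, fewer than 80% of the bases of the mature sequence are A or G, and they are not among a few probes set aside by name. The array held 355 probes in all, 255 of them for porcine miRNAs of miRBase, and a source is listed for 99 of the 100 added probes. Of the 35 other-species probes, 5 are not members. Y-1, Y-76, Y-77 and Y-90 were set aside by name, and Y-84 holds 81.8% A and G. The member nearest to that limit is Y-78, with 76.2%. The signals of Y-78 were 236 in Bama minipigs against 147 in Landrace pigs, and those of Y-84, just outside the limit, were 6655 and 3411.

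Anterior pituitary RNA of 3 female Bama minipig piglets and of 3 female Landrace piglets, all 20 days old, with no treatment or allele named, was pooled within each breed, and each pool was hybridized to 1 array. The Bama minipig is a Chinese breed of small body size, and the Landrace is a lean pig of commercial herds. The values are Cy5 signal intensities on a linear scale after background subtraction and LOWESS normalization by the authors. The median signal over all probes was 114 in Bama minipigs against 95.1 in Landrace pigs. With 1 pool per breed no spread between pigs could be estimated, no test was made and no difference on the arrays could be checked against replicate arrays. In pooled tissue, fewer cells of a type and less RNA per cell cannot be told apart. As a check of the tissue, ssc-miR-7 and Y-90 (miR-375), both known from pituitary endocrine cells, gave 35031 and 34707 on the array of Bama minipigs, and 42831 and 32765 on that of Landrace pigs. The heart miRNA ssc-miR-208b gave 0.829 and 4.29 in the same order of breeds, and the liver miRNA ssc-miR-122 gave 40.3 and 6.56. The red blood cell miRNA ssc-miR-451 gave 5286 and 5841, and ssc-miR-486, also known from blood, gave 208 and 182. The part of blood RNA in the values of the members was not tested.

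A miRNA is cut from a hairpin precursor as a short duplex, of which usually the strand of a single arm is kept, and it represses mRNAs that pair with its seed, the bases 2 to 8. miRNAs with the same seed form a family with overlapping targets. Many miRNAs are conserved across mammals, so that a human or mouse sequence can serve as a probe in the pig, whereas others are known from rodents only. Among the members, miR-212 is known for its induction by cAMP and CREB signalling together with its neighbour miR-132, also in pituitary gonadotrophs. miR-141 belongs to the epithelial miR-200 family, miR-137 is a neuronal miRNA and miR-370 lies in the imprinted DLK1-DIO3 locus.

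The deposited values hold neither background nor repeat spots, so no call of detection is made here. A mean of both signals of 100 or more was used as the minimum for giving a ratio. The mature sequences of the 10 members that reached it follow, with the seed in capitals, because these are the members for which the breeds can be compared.
Y-2: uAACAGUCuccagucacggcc
Y-3: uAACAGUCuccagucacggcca
Y-75 (miR-141): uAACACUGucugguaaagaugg
Y-74 (ssc-miR-137): uUAUUGCUuaagaauacgcgua
Y-81 (ssc-miR-31): aGGCAAGAugcuggcauagcugu
Y-89 (ssc-miR-370): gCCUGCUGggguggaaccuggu
Y-78 (miR-204*): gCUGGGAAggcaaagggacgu
Y-82 (miR-3104-5p): uAGGGGGCaggagccggagcccucu
Y-59 (ssc-miR-2366): uGGGUCACagaagagggucugg
Y-60 (ssc-miR-2483): aACAUCUGguugguugagaga

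The names in parentheses are the candidate names of the study's probe list. No name is listed there for Y-2 and Y-3, whose sequence is that of miR-212. Only Y-2 and Y-3 shared a seed among these 10. The share of 10 in 30 members is 33.3%, against 51.3% of all probes on the array. It was 58.8% for the porcine miRBase probes (150 of 255). For the added probes from pig fat or muscle it was 15.0% (6 of 40), and for those from pig pituitary 20.0% (2 of 10). The last 2 sets were chosen with the same limit on A and G and also without the probes set aside by name. These shares are descriptions of the arrays without a test. The 5 other-species probes that are no members all reached the minimum, so that leaving them out lowered the share. Over all 35 other-species probes it was 42.9% (15 of 35).

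Of the 10 members, 1 was 2-fold or more higher in Bama minipigs and 0 were 2-fold or more lower. Among all 182 probes with a mean signal of 100 or more, 13.2% were 2-fold or more higher and 3.3% were 2-fold or more lower in Bama minipigs. The member past the limit was Y-82, and the other 9 lay between 1.20-fold lower and 1.60-fold higher in Bama minipigs. With Bama minipigs over Landrace pigs as the direction, the log2 ratio was above 0 in 6 of the 10 members and in 50.5% of all probes with that minimum. Its median was 0.31 over the 10 members and 0.28 without Y-82, and 0.025 over the 182 probes. The median of the members depended on the scaling of the arrays and was -0.062 after quantile normalization.

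Y-82 carries the sequence of miR-3104-5p, a miRNA named in mouse. Its signal was 1263 in Bama minipigs against 253 in Landrace pigs, 4.99-fold higher in Bama minipigs (log2 ratio 2.32). Over all alternatives tried, the log2 ratio of Y-82 ran from 2.10 to 2.20. With 25 bases, 72.0% G and C and a run of 5 G, it differed in composition from most members, whose median length was 22 bases and whose median G and C share was 56.8%. No pig precursor is listed for it. The paper selected Y-82, with other miRNAs, for qRT-PCR, and states that the patterns in both breeds matched those of its array. The sequence on the array closest to Y-82 by its longest shared run of letters was Y-84 (miR-328 in the probe list), with 11 letters in common. The run is in capitals below.
Y-82: uaGGGGGCAGGAGccggagcccucu
Y-84: gGGGGGCAGGAGgggcucaggg

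The run lies at bases 3 to 13 of Y-82 and 2 to 12 of Y-84. Of the 354 other sequences on the array, only Y-84 shared 10 or more letters in a row with Y-82. The signals of Y-84 were 6655 and 3411, a log2 ratio of 0.96, in the same direction as Y-82 and just under 2-fold. Whether both probes bind the same RNA was not tested.

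For Y-2 and Y-3, the miR-212 sequences, the signals were higher in Landrace pigs. Y-2 gave 3118 in Bama minipigs against 3646 in Landrace pigs, 1.17-fold higher in Landrace pigs. Y-3 gave 2805 and 3341, 1.19-fold higher in Landrace pigs. Y-3 extends Y-2 by 1 base at the 3′ end, so these are 2 readings of the same miRNA and not separate miRNAs, and their log2 ratios (-0.23 and -0.25) differed by 0.026. Y-1, the probe for ssc-miR-132, has the same seed, AACAGUC, and gave 17403 and 16664, a log2 ratio of 0.063. MIR212 and MIR132 are direct neighbours in the RefSeq annotation of the pig genome (Sscrofa11.1).

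Y-75, the probe for miR-141, gave 2360 in Bama minipigs against 1685 in Landrace pigs, 1.40-fold higher in Bama minipigs (log2 ratio 0.49). Its family member miR-200a (Y-76) shares the seed AACACUG, and the sequences differ by 2 letters, which are in capitals.
Y-75: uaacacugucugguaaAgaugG
Y-76: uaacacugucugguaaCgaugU

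Y-76 gave 7906 in Bama minipigs against 8688 in Landrace pigs (log2 ratio -0.14), so the pair lay on opposite sides of 0, and the difference between the log2 ratios was 0.62. How far each probe also binds the other RNA was not tested. The alternatives tried left the log2 ratio of Y-75 above 0, at 0.30 to 0.47.

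Y-74 reads ssc-miR-137, a neuronal miRNA, and Y-81 reads ssc-miR-31, known from epithelial and immune cells. Y-74 gave 3682 in Bama minipigs against 2931 in Landrace pigs, 1.26-fold higher in Bama minipigs (log2 ratio 0.33). After quantile normalization its log2 ratio was 0.0, so that it had no direction there. Y-81 gave 1607 and 1125, 1.43-fold higher in Bama minipigs (log2 ratio 0.51, and 0.33 to 0.50 over the alternatives). In RefSeq, MIR137 and MIR31 overlap no other listed gene.

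Of the 4 members that belong to the DLK1-DIO3 locus, a cluster of miRNAs expressed from the maternal chromosome, 1 reached the minimum. Y-89, for ssc-miR-370, gave 605 in Bama minipigs against 724 in Landrace pigs, 1.20-fold higher in Landrace pigs (log2 ratio -0.26). Y-95 (miR-668) gave 74.6 and 64.1. Y-92 (miR-541) gave 0.601 and 1.22, and Y-94 (miR-665*) gave 1.47 and 3.98. The signals of these 3 were too low for a ratio. Of the 17 miRBase probes listed for the locus, 11 had a mean signal of 100 or more, with log2 ratios from -0.98 to 1.502 and a median of -0.062. Of these 11, 1 was 2-fold or more higher in Bama minipigs (ssc-miR-376a) and 0 were 2-fold or more lower.

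Y-78 stands for miR-204*, the strand of the miR-204 hairpin that is usually discarded. It gave 236 in Bama minipigs against 147 in Landrace pigs, 1.60-fold higher in Bama minipigs (log2 ratio 0.68, and 0.48 to 0.53 over the alternatives). The main strand, ssc-miR-204, gave 4777 and 2504 (log2 ratio 0.93). Both strands were thus higher in Bama minipigs, and neither reached 2-fold. The pig gene MIR204 lies within the span of TRPM3 in RefSeq.

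The other 3 probes for second arms had low signals. Y-79 (miR-23a*) gave 21.3 in Bama minipigs against 9.31 in Landrace pigs, on arrays on which ssc-miR-23a gave 9991 and 10053. Y-86 (miR-342-5p) gave 2.67 and 3.90, and the other arm, ssc-miR-342, gave 1581 and 1223. Y-93 (miR-664-1*) gave 38.9 and 69.2, and the porcine probes ssc-miR-664-5p and ssc-miR-664-3p gave 56.3 and 33.9, and 203 and 296. How well a probe binds also sets its signal, so these values do not order the RNAs. In RefSeq, MIR23A lies beside MIR27A and MIR24-1, and MIR342 within the span of EVL.

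Among the names taken from cattle or later pig releases, Y-59 and Y-60 passed the minimum and Y-61 did not. Y-59 (ssc-miR-2366) gave 141 in Bama minipigs against 116 in Landrace pigs, a log2 ratio of 0.28 that turned to -0.12 after quantile normalization. Y-28, an added probe that lacks the last base of Y-59, gave 137 and 104 (log2 ratio 0.40), so that these 2 readings of the same sequence differed by 0.11. Y-60 (ssc-miR-2483) gave 125 and 130, a log2 ratio of -0.054, the smallest difference between the breeds among the 10 without further scaling (-0.42 after quantile normalization). MIR2366-1 lies within the span of MAP1A and MIR2483 within that of TENM1. Y-61, listed as ssc-mir-3613, gave 22.7 in Bama minipigs against 62.7 in Landrace pigs. Its sequence holds 19.0% A and G and a run of 10 U, the longest run of 1 letter among the members.

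Of the members named in mouse or rat, 9 of 10 stayed under the minimum, and Y-82 was the exception. Y-64 (miR-702) gave 30.1 in Bama minipigs against 53.1 in Landrace pigs, and Y-87 (miR-3573-3p) gave 22.8 and 65.2. Y-4 (miR-3586-3p) gave 29.9 and 33.8, and Y-96 (miR-678) gave 22.8 and 21.1. The remaining 5 were lower still on the Bama minipig array.

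Y-97 (miR-712) gave 10.2 in Bama minipigs against 15.6 in Landrace pigs, Y-88 (miR-3594-5p) 9.40 and 16.0, and Y-83 (miR-3113) 4.45 and 15.6. Y-98 (miR-742) gave 1.26 and 2.05, and Y-80 (miR-3091-3p) gave 0.735 and 5.72. These signals lie at the low end of the scale, where 89 of the 355 probes had a mean signal under 10.

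Y-4 resembles 2 porcine miRNAs on the array, each 4 edits away. It shares its longest run, of 15 letters, with ssc-miR-708-3p, which gave 16.5 in Bama minipigs against 5.21 in Landrace pigs. With ssc-miR-28-3p, which gave 262 and 294, it shares 11 letters in a row. Y-4 is shown aligned to each of them in turn, with the letters that the alignment does not pair in capitals.
Y-4: aUacuagacugugagcuCcuCga
ssc-miR-708-3p: CaacuagacugugagcuUcuAga
Y-4: AUacuagaCugugagcuccuCga
ssc-miR-28-3p: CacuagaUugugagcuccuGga

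Further members share the seed of a porcine miRNA on the array. Y-100 (miR-7c) has the seed of ssc-miR-7, GGAAGAC, and is 6 edits away from it. Y-91 (miR-449a) has the seed of ssc-miR-34a and ssc-miR-34c, GGCAGUG. The sequences show where each differs outside the seed, again in capitals.
Y-100: uggaagacugAugauuugCugA
ssc-miR-7: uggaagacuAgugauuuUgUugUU
Y-91: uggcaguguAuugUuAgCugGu
ssc-miR-34a: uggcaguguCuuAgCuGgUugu

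Y-100 gave 7.25 in Bama minipigs against 0.122 in Landrace pigs, on arrays whose highest signal was that of ssc-miR-7 in both breeds. Y-91 gave 1.02 and 2.85. Of its seed relatives, the p53 target ssc-miR-34a gave 199 and 253, with a log2 ratio of -0.35, and ssc-miR-34c gave 6.63 and 2.61. Thus Y-100 and Y-91 stayed under the minimum on arrays on which ssc-miR-7 and ssc-miR-34a reached it. The same held for Y-99 (miR-761), with 1.92 and 1.78, whose seed CAGCAGG it has in common with ssc-miR-214, a stromal miRNA that gave 858 and 752. Y-85 (miR-330) gave 56.1 and 58.5 and shares the seed CUCUGGG with ssc-miR-326, which gave 15.3 and 13.4.

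Taking the 20 members under the minimum as a group, the mean signals ended at 69.3 (Y-95), and the lowest mean above the minimum was 127.8 (Y-60). No member had a mean between these values. The number of members that reached the minimum still depended on its choice, with 13 at a minimum of 50 and 7 at 200. The median signal of the 20 was 9.82 in Bama minipigs against 15.6 in Landrace pigs, and 15 of the 20 had the higher signal on the Landrace array. Of all 173 probes under the minimum, 83 had the higher signal on the Landrace array, with medians of 9.14 in Bama minipigs against 6.61 in Landrace pigs. In 8 of the 20 the signal was under 10 on both arrays. No ratio is given for them, because the deposited values do not give the distance of such signals from the background. The paper made its own detection calls, which were not used here.

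The probe list gives a pig precursor for 16 of the 30 members, and the match of the mature sequence to it did not enter the choice of members. In 10 of the 16 the mature sequence lay in the precursor without a mismatch, and 7 of these 10 had a mean signal of 100 or more (Y-2, Y-3, Y-59, Y-60, Y-74, Y-75 and Y-81). In the other 6 it did not, and 2 of these reached the minimum (Y-78 and Y-89). Of the 14 members without a listed precursor, 1 reached it, Y-82. Among the 10 exact matches, 6 lay in the 3′ arm of the hairpin, all with a mean signal of 100 or more, and 4 in the 5′ arm, of which Y-81 reached it and Y-79, Y-91 and Y-99 did not. Y-2 and Y-3 share their precursor. These counts are descriptions of a small set without a test.

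In 4 of the 6 inexact cases the mature sequence and the pig precursor differed by 1 or 2 letters. They are shown as DNA, the probe's sequence first and the pig precursor second, with the differing letters in capitals, because they tell how far the foreign sequence is from the listed pig hairpin.
Y-4: Atactagactgtgagctcctcga
pig precursor of Y-4: Gtactagactgtgagctcctcga
Y-83: gtcctggCcctggtccGggtcc
pig precursor of Y-83: gtcctggTcctggtccTggtcc
Y-85: TctctgggcctgtgTcttaggc
pig precursor of Y-85: GctctgggcctgtgGcttaggc
Y-93: CtggctggggaaaaagaTtgg
pig precursor of Y-93: GtggctggggaaaaagaCtgg

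In Y-4, Y-85 and Y-93 the differences lie at the first base or behind the seed, and in Y-83 at the last base of the seed and behind it. All 4 stayed under the minimum. For Y-78 the listed precursor was 2 edits away, a gap included. For Y-89 it was 9 edits away, so the precursor listed for ssc-miR-370 does not hold the sequence of the probe.

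The median length was 22 bases both in the 10 members with a mean signal of 100 or more and in the other 20. The median G and C share was 55.8% in the 10, with a range of 31.8% to 72.0%, and 57.8% in the 20, with a range of 19.0% to 77.3%.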

How the data were processed

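Each breed was represented by 1 pooled sample on 1 custom array. The authors removed the background, applied LOWESS normalization and averaged each probe's repeat spots. The deposited intensities are linear and above 0 for all 355 probes. Depth does not apply to arrays, and the number of arrays limits the precision. Source, mature sequence, candidate name and precursor sequence of the added probes were read from the probe list of the study, without its measured values, and the porcine mature sequences from its list of all probes. Ratios are log2 of Bama minipigs over Landrace pigs, with no further scaling, for probes with a mean of both signals of 100 or more, and a rule of size (2-fold or more) took the place of a test. Groups were taken from the breed in the labels.

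Alternatives were an offset of 50, other signal minimums, scaling by the median or the 75th percentile, and 2 methods of limma 3.58.1 in R 4.3.3 (quantile, and cyclic loess of 3 iterations). The script was tested on a simulated pair of arrays. Edits were counted with edlib 1.3.9.post1 in Python 3.11.15. RefSeq genes of Sscrofa11.1 were used for names and neighbours only, and 9 of 18 symbols looked up were listed; no coordinates are printed because the probe list names no genome build. The members and lists were chosen with earlier results of these data known. Every member is named, and other probes only as seed relatives, other arms, miRNAs of the DLK1-DIO3 locus or for the check of the tissue. Y-84, ssc-miR-28-3p and ssc-miR-708-3p as sequence neighbours, and the features compared with the precursor, were chosen after their values were seen. The mRNA data were not analysed here.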

Additional observations from a re-analysis of the deposited data

How the results depend on the processing

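No paired analysis was possible because each breed has 1 array and the labels give no replicate numbers, and for the same reason no array could be left out. The number of members with a mean signal of 100 or more, 10, was 13 with a minimum of 50, 7 with 200 or 500, and 10 when each array had to reach 100. The counts past 2-fold, 1 higher and 0 lower in Bama minipigs, were the same under every scaling and minimum tried. The median log2 ratio of the members, 0.31, was 0.13 after median scaling, 0.12 after scaling to the 75th percentile, 0.15 after cyclic loess and -0.062 after quantile normalization. These scalings moved the median of all 182 probes by -0.17, -0.19, -0.11 and -0.092. Median and 75th percentile scaling subtract the same amount from every log2 ratio, so the median of the members moved by that amount. Under cyclic loess and quantile normalization the median of the members moved further, and the cause of the rest was not tested. Quantile normalization turned the sign of Y-59, the only turn among the 10 members under the alternatives. Exact matches to a listed precursor numbered 10, or 14 with up to 2 mismatches. Distance from the background limits all values under the minimum.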
